A study of Homo sapiens with 8 samples.

Results

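The baseline expression state of BEAS-2B cells was described from the 2 libraries labelled as untreated controls (UT), out of 8 RNA-Seq libraries in 4 groups. They were chosen by the treatment label alone, and every one of the 25411 genes listed in the files was taken into account. BEAS-2B is an immortalised line derived from human bronchial epithelium and is widely used as a model of the airway lining. All groups were grown in DMEM with 10% fetal bovine serum, and the UT cells had no contact with added nickel. Of the other groups, Ni-E cells had grown for 6 weeks with 100 µM NiCl2, which dissolves to free nickel ions. Ni-W cells had the same exposure and were then expanded from a single colony in nickel-free medium for more than 6 months, so Ni-W is 1 clonal population and not the mixed population from which it came. HCl3 cells carry the same description of exposure and cloning as Ni-W, and the labels do not say how HCl3 and Ni-W are related. The labels mark the repeat library of each group with a suffix, and the methods of the study call its RNA-Seq samples biological replicates. The P values below rest on the spread between the 2 libraries of each group, which the test also shares across genes. For Ni-W and HCl3 they do not measure how clonal populations differ from each other.

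A bronchial epithelium is built from basal cells, which renew it, and from secretory and ciliated cells, which are named by the mucins, secretoglobins and ciliary proteins that they make. Epithelial cells are held together by E-cadherin junctions and desmosomes over a keratin network, whereas mesenchymal cells rely on vimentin, N-cadherin and a fibrillar matrix. Metals enter and leave cells through families of transporters and are buffered by metallothioneins and ferritin, and nickel is best known for interfering with iron-dependent enzymes.

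Levels are given in RPKM, which divides the reads of a gene by its length and by the size of the library, and each pair of values belongs to UT library 1 and UT library 2 in that order. A gene was counted as on when it reached 1 RPKM in both libraries, as silent when it was not on and neither library held more than 3 reads, and as intermediate otherwise. By this measure 10885 genes (42.8%) were on, 3830 (15.1%) were intermediate and 10696 (42.1%) were silent. No read was found in either library for 8666 genes. Protein-coding genes and non-coding genes differed in this respect. Of 19229 protein-coding genes 54.2% were on and 31.4% silent, whereas of 6182 non-coding genes 7.64% were on and 75.4% silent. The levels of genes that were on had a median of 12.4 RPKM. In both libraries 5978 genes reached 10 RPKM, 647 genes reached 100 RPKM and 18 genes reached 1000 RPKM. UT library 1 held 37469371 reads and UT library 2 held 26383920, against 31141364 to 45692298 in the libraries of the other groups. A level of 3 reads corresponded to 8.01e-06% and 1.14e-05% of the reads, or to 0.023 and 0.032 RPKM for a gene with the median number of reads per RPKM, and such limits cover counting error only. A gene without reads was therefore below detection at this depth, which does not show that it was never transcribed.

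The highest level in the untreated cells belonged to cytoplasmic actin. ACTG1, which encodes gamma actin and lies at chr17:79476997-79479892 (hg19), stood at 3725 and 3916 RPKM, and ACTB, which encodes beta actin, at 2028 and 2204 RPKM. GAPDH and ENO1, which act in glycolysis, were at 2191 and 2008 RPKM and at 1443 and 1433 RPKM. These 4 genes were at similar levels in both libraries. TMSB10, which encodes an actin-monomer-binding thymosin, was at 1948 and 1701 RPKM. VIM, the gene of the mesenchymal intermediate filament vimentin, was at 1417 and 1518 RPKM, and LGALS1, the gene of galectin-1, at 1726 and 1184 RPKM. By the mean of both libraries VIM thus ranked among the 10 highest genes of a line that is labelled as epithelial. In library 1 alone more genes stood above it, among them RPL37A at 1815 RPKM and RPL38 at 1736 RPKM. GNB2L1, which encodes the ribosomal scaffold RACK1, MYL6, a myosin light chain, and FTL, the light chain of the iron store ferritin, were the remaining genes among the 30 highest that do not encode ribosomal proteins. They stood at 1403 and 1327 RPKM, at 1425 and 1147 RPKM, and at 1217 and 1025 RPKM.

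Ribosomal protein genes made up the other 20 of the 30 highest genes and 41 of the 100 highest. The highest of them were RPL35A, at 2943 and 1791 RPKM, and RPL27, at 2560 and 1588 RPKM. Others among them, with mean levels from 1626 to 989 RPKM, were RPL11, RPS6, RPL8, RPL37A, RPL30, RPL38, RPS18, RPL26, RPLP2, RPL23, RPS15A, RPS14, RPS16, RPS24, RPS21 and RPL31. Of 77 ribosomal protein genes listed 75 were on, and together they took 13.8% of the summed RPKM in library 1 and 10.4% in library 2. The untreated transcriptome was spread over many genes. The 10 highest genes held 5.66% and 5.1% of the summed RPKM, the 100 highest 24.5% and 21.5%, and the 1000 highest 58.6% and 55.8%. Counted in reads rather than per length, the 100 genes with the most reads held 14.4% and 14.3%. The authors removed reads that aligned to several places, which can lower the count of a gene with close copies elsewhere in the genome. The share of 50-base stretches of a transcript that recur elsewhere in the genome was 8.25% for ACTG1, 19.1% for ACTB, 24.9% for GAPDH, 55.5% for RPS15A and 80% for TMSB4X, and none recurred for VIM, LGALS1 or GNB2L1. How far this lowered the levels of the repeated genes was not tested.

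Both UT libraries gave nearly the same picture. Across the genes that were on, log2 RPKM of the 2 libraries had a Pearson correlation of 0.9922 and a Spearman correlation of 0.9931, described across genes that are not independent replicates. The log2 ratio of library 2 over library 1 had a median of 0.02 and an SD of 0.24, and 60 genes (0.551%) differed by more than 2-fold. Of these, 52 were higher in library 1 and 8 were higher in library 2. The difference followed gene length. Genes were divided by length into 5 classes of equal size. In the shortest class, with 48 to 1830 bases as implied by reads and RPKM, the median ratio was 0.894 and 53 genes passed 2-fold. In the longest class, with 5590 to 23815 bases, the median ratio was 1.09 and 0 genes passed 2-fold. Among the ribosomal protein genes that were on, which are short, 72 of 75 were lower in library 2, with a median ratio of 0.743.

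**Figure D1:**
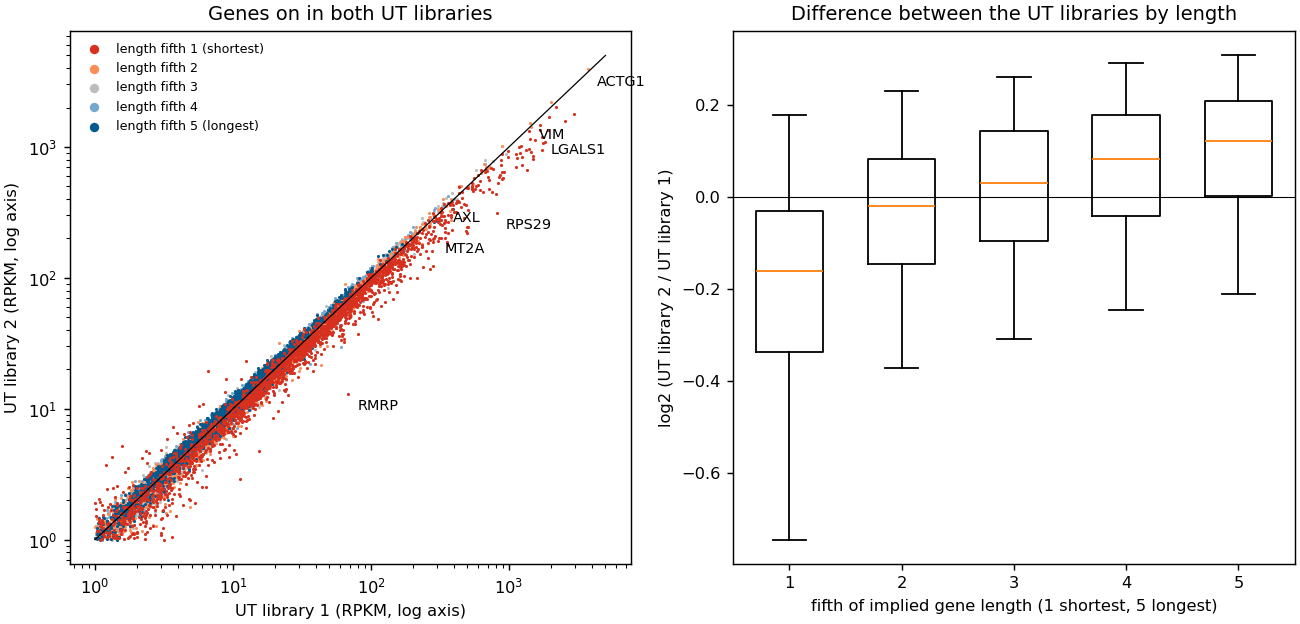
Left, RPKM of each gene that was on, in UT library 1 (x axis) against UT library 2 (y axis), both on log axes, coloured by the 5 classes of implied gene length, with the line of equality. Right, log2 ratio of library 2 over library 1 by length class, with the median (orange line), quartiles (box) and 5th and 95th percentiles (whiskers). The median ratio moves from 0.894 in the shortest class to 1.09 in the longest.

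The genes that stood furthest apart between the libraries included small RNAs, read-through genes, antisense genes and a ribosomal protein gene. RMRP, the RNA component of a ribonuclease that processes mitochondrial and ribosomal RNA, was at 68.3 and 12.9 RPKM, and RPPH1, the RNA of ribonuclease P, at 15.5 and 4.78 RPKM. RPS29, a ribosomal protein gene, was at 812.6 and 313.6 RPKM. ANKRD30BL and the read-through gene BCL2L2-PABPN1 were also higher in library 1, at 3.18 and 1 RPKM and at 4.88 and 1.76 RPKM. In the other direction MIR3655 was at 12.4 and 23.3 RPKM, SUCLG2-AS1 at 1.35 and 2.46 RPKM, and URGCP-MRPS24 at 6.05 and 10.9 RPKM. BLOC1S5-TXNDC5 was at 3.29 and 5.08 RPKM and NCK1-AS1 at 1.4 and 2.12 RPKM. Read-through and antisense genes overlap other genes, and whether the counting used the strand was not stated. Among the genes described below, those of short transcripts such as LGALS1, S100A6, TXN and MT2A were lower in library 2, in the same direction as the short genes as a whole.

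The untreated cells held the keratins of simple epithelia. KRT7 was at 267.3 and 264.6 RPKM, KRT8 at 219.9 and 192.2 RPKM and KRT18 at 147.8 and 144.5 RPKM, whereas KRT19 had 0 and 1 reads and KRT20 none. KRT8 and KRT18 are listed at overlapping places on opposite strands, and 45.3% and 40.1% of their 50-base stretches recur elsewhere in the genome, so that their levels are less certain than that of KRT7, with 1.07%. Of 13 keratins of stratified epithelia 3 were on. KRT10 was at 17.7 and 20.5 RPKM, KRT80 at 17 and 17.5 RPKM and KRT17 at 3.47 and 3.69 RPKM. KRT5 and KRT14, the keratins that define basal cells, had no reads, as had KRT1, KRT6A, KRT6B and KRT13. The cornified envelope genes of squamous cells were mostly silent (10 of 14), with SFN, which encodes the checkpoint protein stratifin, at 36.5 and 33.1 RPKM, TGM1 at 1.44 and 1.41 RPKM and FLG at 1.26 and 1.12 RPKM as the ones that were on.

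Junction genes were divided. Of 40 genes of epithelial junctions and surface 16 were on, 17 intermediate and 7 silent, a share of 40% on against 54.2% over all protein-coding genes. The tight junction gene CLDN1 led the list at 62.5 and 66.8 RPKM, and F11R, which encodes the junctional adhesion molecule JAM-A, was at 16.7 and 15.9 RPKM. Desmosomes, the keratin-anchored junctions, were represented by some parts and not others. The desmosomal cadherins DSC3 and DSG2 were at 16.4 and 20 RPKM and at 12.4 and 14.9 RPKM, and the linker JUP at 14.7 and 13.9 RPKM, whereas DSP, the gene of desmoplakin, which ties desmosomes to keratin, was at 0.23 and 0.34 RPKM. CDH1, the gene of E-cadherin, was at 0.05 and 0.01 RPKM, and EPCAM, a pan-epithelial surface gene, at 0.99 and 0.95 RPKM. Regulators of the epithelial programme were divided as well. The splicing factor gene ESRP1 and the transcription factor genes GRHL2, OVOL1 and OVOL2 were without reads, and with them the polarity and trafficking genes CRB3 and RAB25. The transcription factor gene ELF3 was on at 4.66 and 3.27 RPKM, whereas GRHL1, at 0.9 and 1.02 RPKM, and the splicing factor gene ESRP2, at 0.16 and 0.14 RPKM, were intermediate. Among 16 classical cadherins CDH2, the gene of N-cadherin, was highest at 64.1 and 74.2 RPKM, followed by CDH13 at 10.3 and 9.98 RPKM and CDH24 at 3.05 and 2.98 RPKM.

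**Figure D2:**
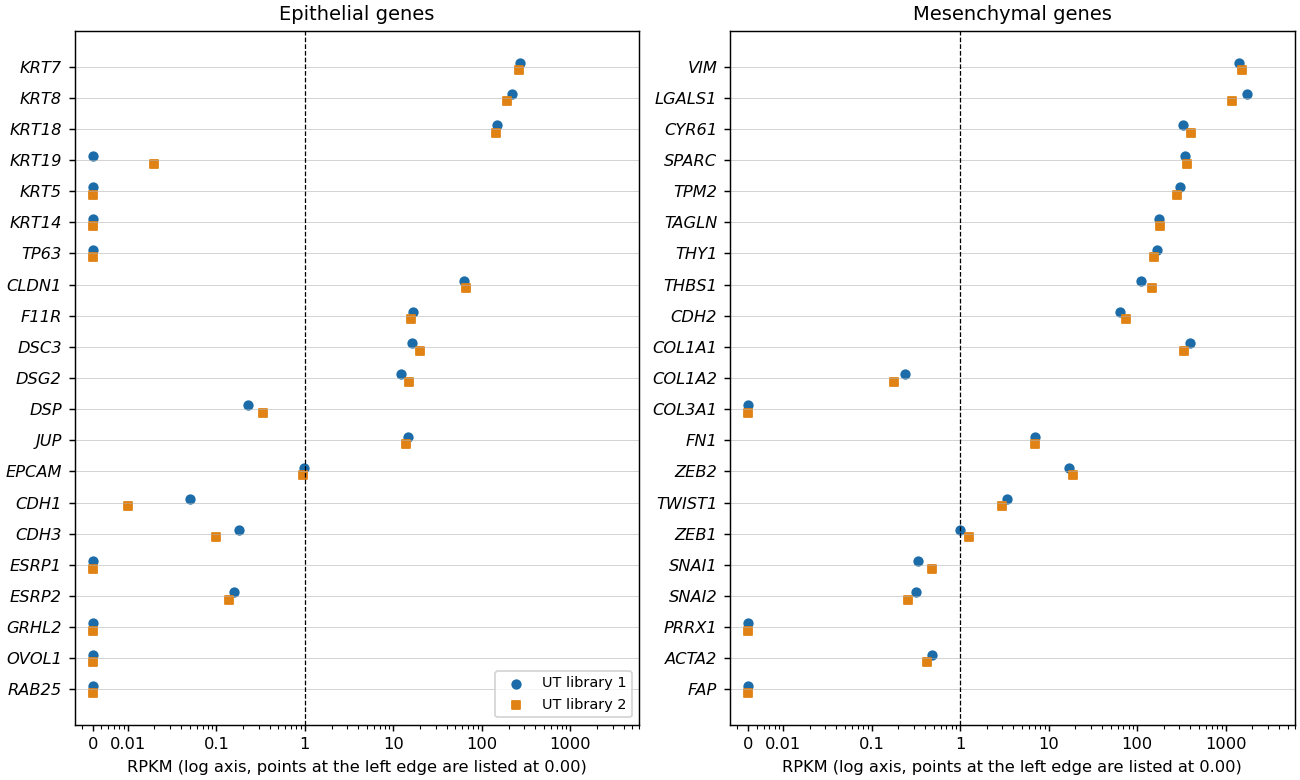
RPKM of named epithelial (left) and mesenchymal (right) genes in UT library 1 (circles) and UT library 2 (squares) on a log axis, with points at the left edge listed at 0.00 RPKM and the dashed line at 1 RPKM. KRT7, KRT8 and KRT18 stand above 100 RPKM while CDH1 and KRT19 lie below 0.1 RPKM, and VIM and LGALS1 stand above 1000 RPKM while COL3A1, PRRX1 and FAP are listed at 0.

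The mesenchymal genes were on to a larger share, with 26 of 34 on (76.5%). Beside VIM and LGALS1, high levels were held by CYR61, a matricellular protein gene, at 331.1 and 401.5 RPKM, and SPARC, which encodes a collagen-binding matrix protein, at 345.9 and 362.4 RPKM. The contractile genes TPM2 and TAGLN stood at 302.3 and 281.6 RPKM and at 178.6 and 182.2 RPKM. THY1, a surface marker of fibroblasts, was at 166.5 and 155.4 RPKM and THBS1, a thrombospondin, at 111.8 and 147.3 RPKM. Some genes that mark activated fibroblasts were low or without reads. ACTA2, the gene of smooth muscle actin, was at 0.48 and 0.42 RPKM, POSTN at 0.43 and 0.44 RPKM, and FAP and CDH11 had no reads. FN1, the gene of fibronectin, was at 6.97 and 6.99 RPKM, far under VIM. Of 13 transcription factors linked to epithelial-mesenchymal transition ZEB2 was highest at 16.9 and 18.8 RPKM, followed by FOXC1 at 4.35 and 4.81 RPKM and TWIST1 at 3.37 and 2.93 RPKM. ZEB1 was at 0.99 and 1.25 RPKM, SNAI1 at 0.33 and 0.48 RPKM and SNAI2 at 0.32 and 0.26 RPKM, while PRRX1, FOXC2, KLF8 and GSC had no reads.

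Matrix genes were uneven within their families. Of the 2 chains of type I collagen, COL1A1 was at 390.2 and 337.9 RPKM and COL1A2 at 0.24 and 0.18 RPKM, and COL3A1, the chain of type III collagen, had no reads. Collagen genes were on in 11 of 21 cases, with COL12A1 at 62.2 and 65.8 RPKM, COL6A1 at 41.8 and 35.5 RPKM and COL4A2, of the basement membrane, at 35.1 and 28.9 RPKM. Each laminin is built from an alpha, a beta and a gamma chain. The highest gamma chain gene was LAMC1 at 43.9 and 49.7 RPKM and the highest beta chain gene LAMB2 at 24.7 and 19.1 RPKM, but among the alpha chain genes LAMA1 alone was on, at 2.34 and 2.15 RPKM. LAMA3, which pairs with LAMB3 in the laminin under epithelial sheets, was at 0.96 and 0.85 RPKM. Integrin genes on in UT were 7 of 18 alpha and 2 of 8 beta subunits. ITGB1 was at 153.3 and 173.4 RPKM, ITGA3, which with it binds laminin, at 76.9 and 77.3 RPKM, and ITGA5, which with it binds fibronectin, at 48.3 and 47.2 RPKM. ITGB4, part of the hemidesmosome, was at 1.44 and 0.91 RPKM and ITGB6 had no reads. Among matrix proteases and their inhibitors 2 inhibitors were highest, with TIMP2 at 137.3 and 146.4 RPKM and TIMP1 at 99 and 93.5 RPKM, against MMP14, a membrane-bound collagenase, at 16 and 15.1 RPKM.

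These levels were set against the other groups with DESeq2, in which a gene was called at an adjusted P value under 0.05 and a change of at least 1.5-fold. All 3 comparisons share the UT libraries, so they are not independent of each other. Of 14478 genes tested, 3.75% were called higher and 2.05% lower in Ni-E than in UT. For Ni-W the shares were 10.9% and 4.83% of 15826 genes, and for HCl3 11.1% and 3.74% of 15766 genes. Median log2 changes over all genes tested were within 0.01 of 0. Among the mesenchymal genes tested, 3 of 32 were higher and 5 lower in Ni-E, against 11 higher and 3 lower of 33 in Ni-W and 17 higher and 0 lower of 33 in HCl3. At an unadjusted P under 0.05, 1 of them was lower in HCl3, and by edgeR none was. VIM was at 992.4 and 827.1 RPKM in Ni-E and at 816.3 and 991.9 RPKM in Ni-W, all below both UT libraries, which made it 1.68-fold (adjusted P = 5.77e-08) and 1.66-fold lower (adjusted P = 3.14e-09). TAGLN fell to 61.1 and 87.3 RPKM in Ni-E, 2.53-fold lower than in UT (adjusted P = 2.07e-17). FN1, by contrast, was at 82.1 and 82.8 RPKM in Ni-W and at 117 and 120.7 RPKM in HCl3, 11.6-fold (adjusted P = 5.08e-290) and 16.5-fold over UT. CDH11, without reads in UT, reached 1 and 1.08 RPKM in Ni-W (adjusted P = 5.17e-09) and 0.35 and 0.38 RPKM in HCl3 (adjusted P = 4.31e-06), and the Ni-W call was lost with the repeat suffix as a block. In a bulk library, more cells with a transcript and more transcript per cell cannot be told apart.

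Epithelial junction genes were higher in 5 of 33 tests and lower in 0 in Ni-E (4 lower at an unadjusted P under 0.05, none by edgeR), 11 higher and 3 lower of 34 in Ni-W, and 11 higher and 1 lower of 33 in HCl3. DSP was above its UT level in every library of the other groups. It was at 2.19 and 1.93 RPKM in Ni-E, at 5.49 and 5.72 RPKM in Ni-W and at 8.31 and 8.49 RPKM in HCl3, or 7.26, 20.1 and 29.1 times UT (adjusted P = 1.84e-34, 3.9e-132 and 3e-200). KRT7 was at 477.5 and 480.6 RPKM in Ni-W, 1.76-fold over UT (adjusted P = 1.09e-16). Its HCl3 call, at 412.2 and 438 RPKM and 1.54-fold, was lost without HCl3 replicate 2 and with all 8 libraries in one fit. CLDN1 went the other way in Ni-W, at 35.4 and 36.8 RPKM, 1.84-fold lower (adjusted P = 5.49e-16). Of the collagens, 1 was higher and 5 were lower among 18 tested in Ni-E, 9 were higher and 3 lower among 18 in Ni-W, and 15 were higher and 1 lower among 20 in HCl3. The fibril-regulating chain COL5A1 moved from 2.44 and 2.01 RPKM in UT to 17.7 and 19 RPKM in Ni-W and to 29.1 and 29.8 RPKM in HCl3, 8.03-fold and 12.7-fold (adjusted P = 1.68e-122 and 2.6e-233). COL1A1 was at 218.1 and 245.3 RPKM in Ni-W, 1.61-fold lower than in UT, and this call was lost without UT replicate 1 and with all 8 libraries in one fit.

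The labelled tissue was checked against genes that mark the cells of the airway. All 7 club cell markers were silent, with 0 and 1 reads for SCGB1A1, the secretoglobin that defines these cells. All but 1 of 7 goblet cell markers were silent, with 2 and 0 reads for the mucin gene MUC5B, and the exception, FOXA3, was at 0.05 and 0.09 RPKM. The goblet mucin gene MUC5AC was not listed under that symbol, so its state was not assessed. None of 12 ciliated cell markers was on, and FOXJ1, the regulator of motile cilia, had 1 and 0 reads. Of 10 basal cell markers S100A2, at 8.42 and 6.42 RPKM, and ITGA6, at 5.8 and 6.64 RPKM, were on, but TP63, KRT5 and KRT14, the defining genes, had no reads. Of 14 alveolar markers 3 were on, with CAV1 at 76.6 and 83.9 RPKM, RTKN2 at 5.03 and 4.73 RPKM and ABCA3 at 3.41 and 2.64 RPKM. The surfactant genes SFTPA1, SFTPA2, SFTPB, SFTPC and SFTPD of the alveolus had no reads. None of the 10 markers of neuroendocrine cells and ionocytes was on. Leaving MUC5AC aside, the genes named here that define basal, club, goblet and ciliated cells were thus silent or under 1 RPKM in both libraries. The label of an epithelial line was met by KRT7, KRT8, KRT18 and part of the junction genes, and the label of a lung line by none of these defining airway genes.

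**Figure D3:**
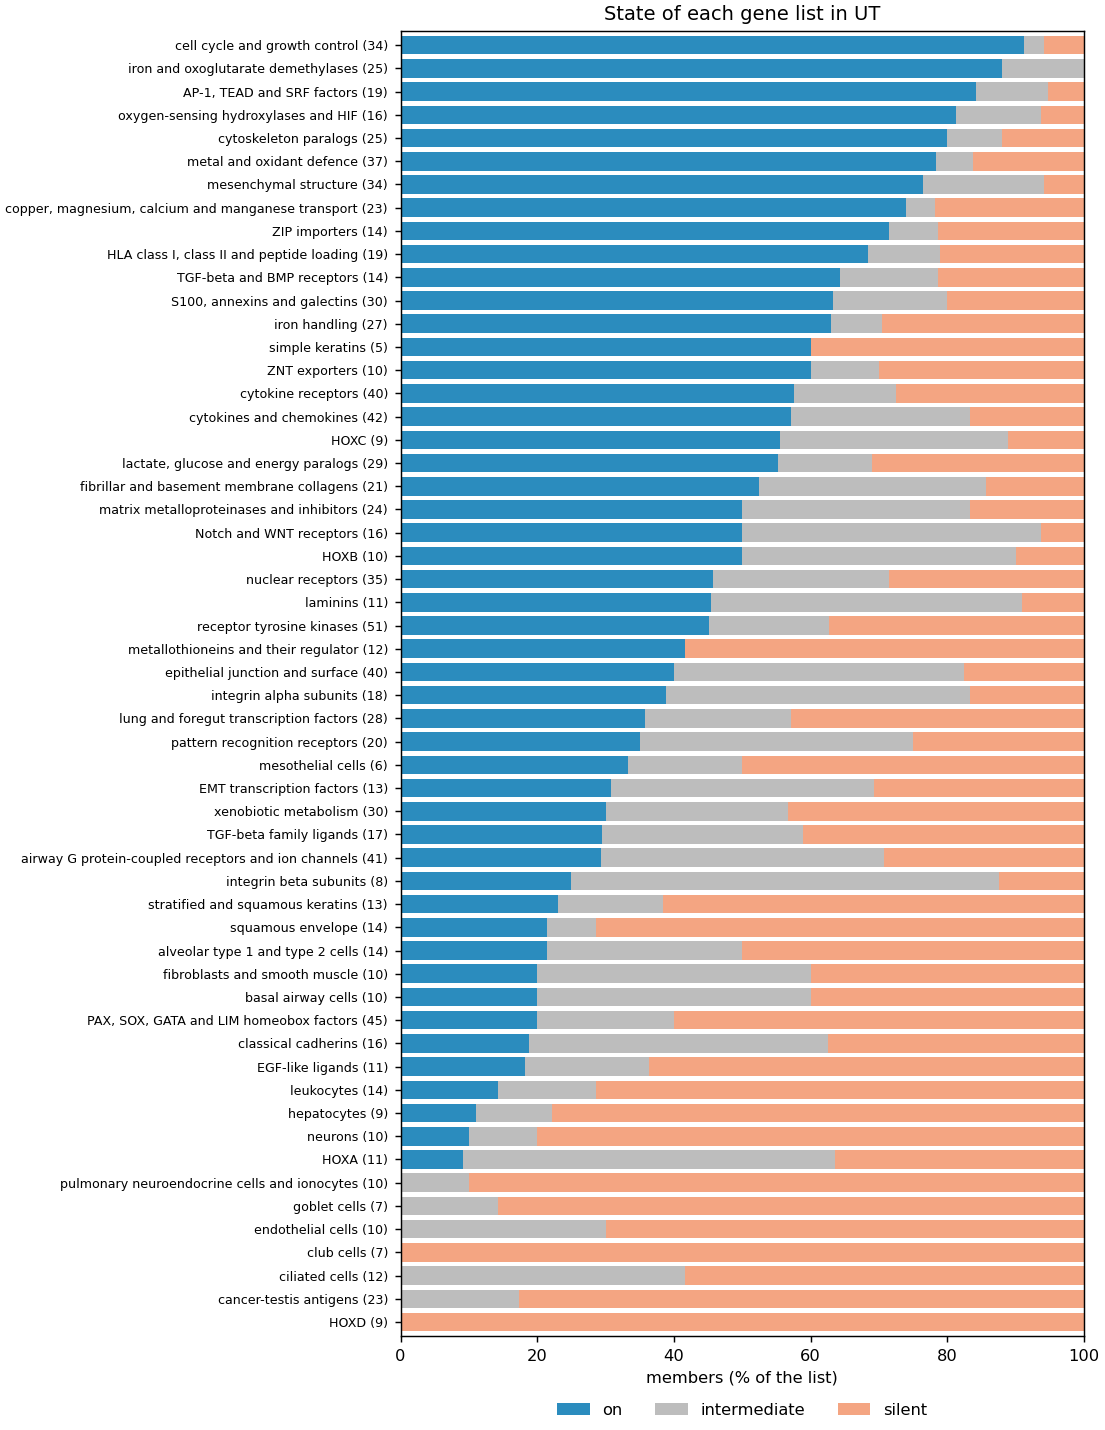
Share of each gene list that was on (blue), intermediate (grey) or silent (orange) in UT, in percent of the members in the files, whose number stands in parentheses after the list's name. Lists of cell cycle genes and of iron-dependent demethylases are on in over 80% of members, while no member is on in the lists of club cells, goblet cells, ciliated cells, HOXD genes or cancer-testis antigens.

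Transcription factors of lung and foregut were divided. Of 28 factors of lung and foregut 10 were on and 12 silent. NKX2-1, the master factor of lung, FOXA2, SOX2 and FOXF1 had no reads. FOXA1 was at 0.28 and 0.38 RPKM and SOX9 at 0.21 and 0.28 RPKM. Highest of the factors that were on were ETV5 at 6.18 and 7.83 RPKM, KLF5 at 6.41 and 7.39 RPKM and FOXP4 at 5.84 and 6 RPKM. ID2, TBX2, ELF3, FOXP1, TBX3 and ETV4 were on at lower levels, as was GATA6, a factor of foregut endoderm, at 1.53 and 1.48 RPKM. NKX2-1 was detected at 0.29 and 0.21 RPKM in Ni-W (adjusted P = 0.000664) and at 0.19 and 0.18 RPKM in HCl3 (adjusted P = 0.00326), levels that still lay under 1 RPKM. The Ni-W call was lost with the repeat suffix as a block or without Ni-W replicate 1, and the HCl3 call without UT replicate 1 or either HCl3 replicate. In the wider set of PAX, SOX, GATA and LIM homeobox factors 27 of 45 were silent and 9 on. GATA2, best known from blood and endothelium, was highest at 30.6 and 32.1 RPKM, followed by SOX12 at 9.01 and 7.87 RPKM and SOX13 at 6.75 and 6.2 RPKM. PAX6 was at 3.3 and 3.86 RPKM and PAX9 at 2.03 and 2.14 RPKM.

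Most of the listed factors that answer to growth, stretch and stress were on. In the list of AP-1, TEAD and SRF factors, added after the values were seen, 16 of 19 were on. This was 84.2%, against 54.2% over all protein-coding genes. JUN was at 46.8 and 46.7 RPKM, FOSL1, its AP-1 partner, at 38.8 and 41.9 RPKM, and YAP1, the coactivator of TEAD factors, at 37.2 and 43.9 RPKM. TEAD1 followed at 30.5 and 37.9 RPKM. FOS, which is induced for a short time after stimulation, was at 0.41 and 0.44 RPKM.

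HOX genes, which record position along the body axis, differed by cluster. In the HOXC cluster 5 of 9 genes were on, led by HOXC8 at 9.53 and 9.5 RPKM and HOXC6 at 7.71 and 7.61 RPKM, and in the HOXB cluster 5 of 10, led by HOXB7 at 4.27 and 4.18 RPKM and HOXB9 at 3.67 and 4.4 RPKM. Of 11 HOXA genes 1 was on. All 9 HOXD genes had no reads in either library. HOXB9 was the HOX gene that differed in both directions between groups. It was at 11.4 and 11.2 RPKM in Ni-E, 2.7-fold over UT (adjusted P = 8.27e-16), and at 1.04 RPKM in both Ni-W libraries, 3.97-fold under UT (adjusted P = 2.62e-16).

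Markers of other lineages were looked for as signs of another cell type. None of 10 endothelial markers was on, and PECAM1, CDH5 and KDR had no reads. Of 14 leukocyte markers CD68, a lysosomal protein gene, was at 21 and 19.7 RPKM and CD14 at 1.8 and 1.06 RPKM. PTPRC, the pan-leukocyte gene, had 1 and 0 reads and CD3D and SPI1 none. Of 10 fibroblast and smooth muscle markers COL1A1 and the receptor gene PDGFRB were on, whereas DCN, COL3A1 and TCF21 had no reads and PDGFRA 3 and 0. Of 10 neuronal markers TUBB3, a tubulin gene, was on at 42 and 36.6 RPKM. Of 9 hepatocyte markers SERPINA1 was on at 1.66 and 1.3 RPKM, and ALB had no reads. Mesothelial markers were split, with MSLN, the gene of mesothelin, at 10.7 and 9.79 RPKM and WT1, a transcription factor of mesothelium and kidney, at 5.86 and 7.53 RPKM, but no reads for CALB2, the gene of calretinin. WT1 was lower in Ni-W, at 0.56 and 0.78 RPKM (10.4-fold, adjusted P = 2.93e-46), and in HCl3, at 2.65 and 2.58 RPKM (2.62-fold, adjusted P = 3.22e-13). Cancer-testis genes, which are active in germ cells and in many tumours, were off. None of 23 was on, 19 were silent, and the highest, PAGE5, was at 0.48 and 0 RPKM.

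Among growth factor receptors AXL stood apart. AXL, the receptor tyrosine kinase that binds GAS6, was at 337.7 and 354.4 RPKM and made up 57.5% of the summed RPKM of 51 receptor tyrosine kinase genes. Of these 23 were on and 19 silent. The next highest were ERBB2 at 29.3 and 27.9 RPKM, RYK at 26.3 and 29.7 RPKM, EPHA2 at 26.3 and 27.9 RPKM and MET, the receptor of hepatocyte growth factor, at 23.2 and 27 RPKM, and the values of each overlap those of the next. EGFR was at 7.48 and 7.74 RPKM. EGFR was higher in Ni-W, at 12.8 and 14.1 RPKM (1.72-fold, adjusted P = 1.03e-09), and in HCl3, at 16.6 and 16.4 RPKM (2.08-fold, adjusted P = 7.81e-23). Of the EGF-like ligands 2 of 11 were on, HBEGF at 17.6 and 21.2 RPKM and NRG1 at 1.5 and 1.62 RPKM, and AREG, EREG and EPGN had no reads. FGFR1 was at 17.3 and 16.8 RPKM and its ligand FGF2 at 16.8 and 21.5 RPKM, whereas FGFR2, the epithelial receptor of FGF7 and FGF10, had no reads. TGF-beta signalling had both ends on, with the ligands TGFB2 and TGFB1 at 26.1 and 31.3 RPKM and at 28.1 and 27.2 RPKM, and the receptors TGFBR2 and TGFBR1 at 11.4 and 13.5 RPKM and at 10.8 and 12.4 RPKM. NOTCH2 was the highest Notch receptor gene at 32.4 and 36.5 RPKM, and FZD6 the highest Frizzled gene at 19.4 and 19.8 RPKM.

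Cytokine receptors were led by TNFRSF12A, the receptor of the ligand TWEAK, at 182.5 and 161.6 RPKM, and IL7R at 80.4 and 95.7 RPKM. Of 40 such genes 23 were on, and the chemokine receptors CXCR1, CXCR2, CXCR4, CCR2 and CCR7 had no reads. IL7R was at 45.9 and 47.3 RPKM in Ni-E, 1.96-fold lower than in UT (adjusted P = 3.55e-14). Chemokines that attract monocytes and neutrophils were expressed without treatment. CCL2 was at 188.3 and 136.3 RPKM, CXCL8 at 136.3 and 124.2 RPKM and CXCL1 at 52.6 and 47.9 RPKM. Among other cytokines IL32 was at 79.4 and 70.2 RPKM, IL6 at 4.47 and 3.04 RPKM and TNF at 0.16 and 0.1 RPKM. Sensors of microbes were modest. The adaptor MYD88 was at 16.4 and 15.4 RPKM, while TLR3, TLR2 and TLR4 were at 1.2 and 0.96 RPKM, at 0.95 and 0.87 RPKM and at 0.54 and 0.75 RPKM. Class I antigen presentation was on and class II was divided. B2M, the light chain of class I molecules, was at 595.1 and 510.1 RPKM and HLA-C at 323.8 and 277.6 RPKM. The class II genes HLA-DRA, HLA-DRB1, HLA-DQA1 and HLA-DQB1 had no reads, and HLA-DPA1 was at 0.16 and 0.14 RPKM. HLA-DPB1, also of class II, was on at 2.52 and 2.24 RPKM, as was the class II chain gene CD74 at 2.99 and 2.12 RPKM. HLA genes are close copies of each other and vary between people, so their levels are uncertain.

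Of 35 nuclear receptors 16 were on. NR1H2, a sensor of oxysterols, was at 50.4 and 44.4 RPKM, NR2F2, an orphan receptor, at 26.6 and 34.8 RPKM, and NR3C1, the glucocorticoid receptor, at 22.8 and 26.6 RPKM. ESR1 and PGR had no reads. Among airway receptors coupled to G proteins and ion channels 12 of 41 were on. OXTR, the oxytocin receptor gene, was highest at 40.8 and 53.4 RPKM, followed by the adenosine receptor gene ADORA2B at 18.2 and 18.8 RPKM. BDKRB1, a bradykinin receptor gene, was at 15.1 and 12.7 RPKM. The chloride and sodium channels of airway epithelium were off, with no reads for CFTR, ANO1 or SCNN1B and 0.06 and 0.07 RPKM for SCNN1A. BDKRB1 was lower in all other groups, at 6.65 and 6.17 RPKM in Ni-E, 4.42 and 3.69 RPKM in Ni-W and 4.46 and 4.84 RPKM in HCl3, or 2.26, 3.52 and 3.12 times under UT (adjusted P = 3.29e-08, 2.07e-19 and 1.36e-18). OXTR was lower in Ni-E, at 20 and 22.2 RPKM (2.33-fold, adjusted P = 4e-16).

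Metallothioneins are small cysteine-rich proteins that bind zinc, copper and cadmium, and their genes are switched on by the zinc-sensing factor MTF1 through metal response elements. In untreated cells a single gene carried the family. MT2A was at 291.9 and 207.3 RPKM and took 85.5% of the summed RPKM of the 11 metallothioneins and MTF1. MT1E followed at 29.5 and 17.6 RPKM, MT1X at 13 and 8.32 RPKM and MT1F at 1.82 and 2 RPKM. MTF1 itself was at 5.8 and 6.08 RPKM. The other genes were silent, with 3 and 0 reads for MT1A, 0 and 1 for MT1G, and none for MT1B, MT1M, MT1H, MT3 and MT4. MT2A, MT1E and MT1X were all lower in library 2, as short genes were in general, and 14.2%, 20.6% and 10.6% of their 50-base stretches recur elsewhere in the genome.

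Promoters of expressed and silent metallothioneins were compared for the core of the metal response element. The 300 bases from 250 before to 50 after the RefSeq start (GRCh38.p14) were searched for TGCACNC or TGCGCNC and for their reverse complements, GNGTGCA and GNGCGCA. They are shown because the silent and the expressed genes both hold such cores, which stand in capitals. Coordinates are chr16:56608334-56608633 for MT2A, chr16:56682220-56682519 for MT1X, chr16:56669564-56669863 for MT1H and chr16:56564823-56565122 for MT4, all on the plus strand.
MT2A: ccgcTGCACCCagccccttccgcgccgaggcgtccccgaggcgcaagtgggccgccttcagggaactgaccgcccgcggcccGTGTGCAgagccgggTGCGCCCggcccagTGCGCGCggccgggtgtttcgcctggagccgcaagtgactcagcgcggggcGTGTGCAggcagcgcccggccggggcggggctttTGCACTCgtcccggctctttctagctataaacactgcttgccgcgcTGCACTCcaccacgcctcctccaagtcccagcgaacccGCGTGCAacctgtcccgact
MT1X: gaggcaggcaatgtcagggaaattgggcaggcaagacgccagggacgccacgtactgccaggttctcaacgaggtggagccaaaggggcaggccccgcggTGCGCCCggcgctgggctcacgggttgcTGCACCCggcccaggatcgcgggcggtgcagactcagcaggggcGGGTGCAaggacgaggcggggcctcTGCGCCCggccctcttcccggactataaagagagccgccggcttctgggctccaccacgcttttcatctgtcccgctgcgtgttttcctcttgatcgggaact
MT1H: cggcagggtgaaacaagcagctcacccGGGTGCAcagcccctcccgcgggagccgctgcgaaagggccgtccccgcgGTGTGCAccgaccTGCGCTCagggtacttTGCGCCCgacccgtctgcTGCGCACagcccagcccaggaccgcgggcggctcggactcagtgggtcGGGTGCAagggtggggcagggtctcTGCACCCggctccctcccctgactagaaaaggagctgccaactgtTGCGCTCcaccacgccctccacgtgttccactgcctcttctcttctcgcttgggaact
MT4: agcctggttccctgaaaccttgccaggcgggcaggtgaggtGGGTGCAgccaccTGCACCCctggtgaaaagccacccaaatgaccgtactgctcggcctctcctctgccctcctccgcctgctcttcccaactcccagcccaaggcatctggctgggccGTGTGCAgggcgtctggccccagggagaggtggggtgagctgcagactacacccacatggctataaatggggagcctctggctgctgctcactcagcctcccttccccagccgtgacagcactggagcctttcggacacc
The 2 expressed genes had 8 cores (MT2A) and 4 cores (MT1X), and the 2 genes without reads had 8 cores (MT1H) and 3 cores (MT4). Of 35116 promoters that RefSeq lists in this way 29.6% held at least 1 core, 2.3% at least 3 and 0.601% at least 4. The number of cores in this window therefore did not separate MT1H from MT2A, and a match of letters is a description and not a shown binding site.

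Zinc transporters were widely on. Of 14 ZIP genes, whose products move zinc into the cytoplasm, 10 were on. SLC39A7, of the endoplasmic reticulum and Golgi, was highest at 79.2 and 75.6 RPKM, and it overlaps RXRB on the other strand. SLC39A1 was at 60.2 and 56.9 RPKM, SLC39A14, which also carries iron and manganese, at 50.2 and 52.6 RPKM, and SLC39A6 at 46 and 52 RPKM. SLC39A8, a close relative of SLC39A14 that takes up zinc, manganese and cadmium, was intermediate at 0.36 and 0.23 RPKM. Of 10 ZNT genes, whose products move zinc out of the cytoplasm, 6 were on, led by SLC30A9 at 25.3 and 27.5 RPKM and SLC30A5 at 17.3 and 18.6 RPKM. SLC30A1, the exporter at the plasma membrane, was at 10.2 and 12.3 RPKM.

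Iron storage and uptake genes were on, and the exporter gene was not. FTL and FTH1, the ferritin chains, were at 1217 and 1025 RPKM and at 186.7 and 181.6 RPKM, and 21.3% and 45.6% of their 50-base stretches recur elsewhere in the genome. TFRC, the transferrin receptor gene, was at 64.7 and 80.3 RPKM, ACO1, an iron-sensing regulator of ferritin and TFRC transcripts, at 42.1 and 45.2 RPKM, and SLC11A2, which encodes the divalent metal carrier DMT1, at 10.2 and 10.6 RPKM. SLC40A1, the gene of the exporter ferroportin, was at 0.27 and 0.21 RPKM, and the systemic iron genes TF, TFR2 and HAMP had no reads. Of 23 genes of copper, magnesium, calcium and manganese transport 17 were on, led by the copper chaperone gene ATOX1 at 133.6 and 109.4 RPKM. The copper pump genes ATP7A and ATP7B were at 1.71 and 1.75 RPKM and at 1.75 and 1.7 RPKM. The voltage-gated calcium channel genes CACNA1A, CACNA1D and CACNA1H had no reads.

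**Figure D4:**
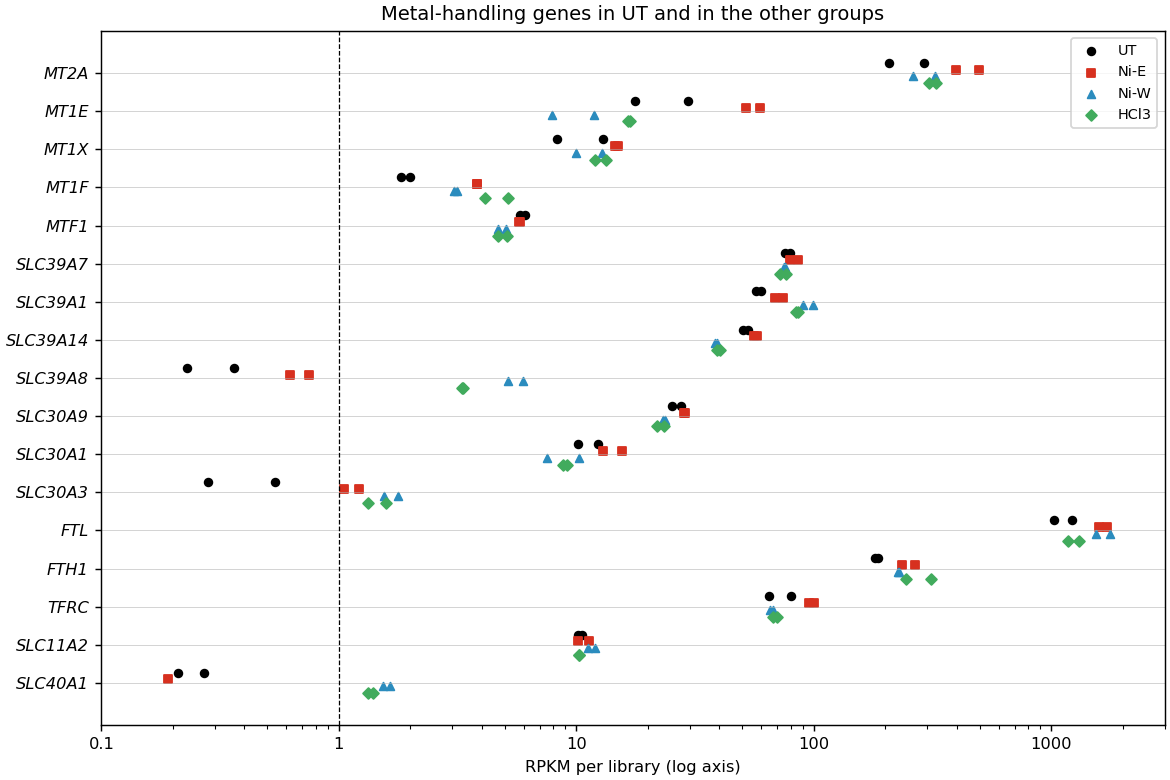
RPKM per library (log axis) of metal-handling genes in UT (black circles), Ni-E (red squares), Ni-W (blue triangles) and HCl3 (green diamonds), 2 libraries a group, with the dashed line at 1 RPKM. MT1E lies above both UT libraries in Ni-E and below them in Ni-W, while SLC39A8 and SLC40A1 lie above UT in Ni-W and HCl3.

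Over the 8 lists of metal handling, oxygen sensing, demethylation and oxidant defence, 6 genes were higher and 2 lower in Ni-E than in UT among 131 tested. This was 6.11% in either direction, against 5.8% of all genes tested, so the share lay near that of all genes. In the metallothionein list 2 of 5 tested genes were higher, against 3.75% of all genes. In the iron list 0 of 19 tested genes were called by DESeq2 or by edgeR, with 4 higher and 1 lower at an unadjusted P under 0.05. MT1E was at 52 and 59.6 RPKM in Ni-E, 2.27-fold over UT (adjusted P = 1.61e-06). MT2A was at 397.2 and 496.5 RPKM, 1.72-fold over UT (adjusted P = 3.27e-05), and this call was lost without UT replicate 2 or without Ni-E replicate 2. SLC7A11, the cystine importer gene, was at 7.63 and 8.67 RPKM in Ni-E and at 3.85 and 4.35 RPKM in UT, 1.91-fold higher (adjusted P = 1.46e-10). ATP13A2, a lysosomal transport ATPase gene, was 1.86-fold higher in Ni-E (adjusted P = 3e-09), and ATP2B4, a calcium pump gene, was 1.63-fold lower (adjusted P = 6.44e-06), a call lost without Ni-E replicate 2. The calls of SLC30A3, which was higher, and of ARNT2, which was lower, were lost with the repeat suffix as a block and without either UT library. In Ni-W MT1E was lower than in UT, at 11.9 and 7.89 RPKM (2.44-fold, adjusted P = 1.49e-05), a call that was lost without UT replicate 1. SLC39A8 was at 5.98 and 5.13 RPKM in Ni-W and at 3.32 and 3.31 RPKM in HCl3, 19.4-fold and 11.5-fold over UT (adjusted P = 4.02e-52 and 1.4e-32). SLC40A1 was at 1.54 and 1.64 RPKM in Ni-W and at 1.33 and 1.39 RPKM in HCl3, 6.3-fold and 5.31-fold over UT (adjusted P = 6.13e-13 and 2.13e-10). For SLC39A8 in Ni-E, at 0.75 and 0.62 RPKM, the call (2.45-fold, adjusted P = 0.0479) was lost when any of the 4 libraries was left out and with the repeat suffix as a block.

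Most of the listed iron-dependent dioxygenases, which use oxygen and 2-oxoglutarate and whose iron nickel can replace, were on. In a list of 16 hydroxylases, HIF subunits and VHL 13 were on, and the HIF subunits and VHL in it are not dioxygenases. Of 25 demethylases of histones, DNA and RNA 22 were on and 0 silent. PLOD2, a collagen lysyl hydroxylase, was highest at 284.7 and 328.1 RPKM. HIF1A was at 25.3 and 27.9 RPKM and its relative EPAS1 at 8.35 and 8.77 RPKM. Of the prolyl hydroxylases that mark HIF for destruction, EGLN2 was at 29.6 and 25.4 RPKM, EGLN1 at 12 and 13 RPKM and EGLN3 at 0.63 and 0.46 RPKM. ALKBH5, an RNA demethylase, was at 71.1 and 66.3 RPKM. Of the demethylases of histone H3 lysine 9, KDM3B was at 26.4 and 28.2 RPKM, KDM4A at 16 and 16.7 RPKM and KDM3A at 10.8 and 11.6 RPKM. TET1, a DNA demethylase gene, was intermediate at 0.64 and 0.68 RPKM. HIF1A was higher in Ni-W, at 48.3 and 53.9 RPKM (1.88-fold, adjusted P = 1.36e-14), and in HCl3, at 80.4 and 75.4 RPKM (2.81-fold, adjusted P = 3.46e-51). KDM3A was higher in both as well, at 20.6 and 19.4 RPKM and at 20.2 and 18.4 RPKM, 1.75-fold and 1.65-fold over UT (adjusted P = 5.82e-12 and 2.2e-10). Among the demethylases 0 of 25 were called in Ni-E by DESeq2 or by edgeR, with 1 higher and 2 lower at an unadjusted P under 0.05. Over all genes tested 3.75% were higher and 2.05% lower in Ni-E, so a count of 0 among 25 genes lies near that background.

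Genes of defence against oxidants were strongly on, and those of drug metabolism were not. Of 37 oxidant and metal defence genes 29 were on. PRDX1, a peroxiredoxin, was at 770.2 and 684.1 RPKM, SOD1 at 564.7 and 474.2 RPKM, TXN, the gene of thioredoxin, at 468.2 and 286.7 RPKM and GSTP1 at 361.2 and 303.9 RPKM. NQO1, a quinone reductase under the control of NFE2L2, was at 25.8 and 25.2 RPKM. Of 30 xenobiotic genes 9 were on and 13 silent. POR, which passes electrons to the cytochromes P450, was highest at 33.3 and 31.4 RPKM. AHR, the dioxin receptor gene, was at 9.19 and 9.72 RPKM, with its targets CYP1B1 at 3.23 and 2.99 RPKM and CYP1A1 at 0.67 and 0.74 RPKM. CYP2A13, CYP2F1, CYP2B6 and CYP3A4, of which CYP2A13 and CYP2F1 are typical of airway tissue, had no reads. NQO1 was higher in Ni-W, at 63 and 58.6 RPKM (2.33-fold, adjusted P = 1.32e-28), and in HCl3, at 46.6 and 47.8 RPKM (1.78-fold, adjusted P = 5.24e-16).

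Genes of the cell cycle were on in the untreated cells. Of 34 cell cycle and growth genes 31 were on. PCNA, the sliding clamp of replication, was at 373.3 and 368.4 RPKM, TYMS at 191.3 and 209.8 RPKM and TOP2A at 152.1 and 172.4 RPKM. Brakes of the cycle were on beside them. CDKN2A was at 184.5 and 136.7 RPKM, RB1 at 32 and 38.6 RPKM and CDKN1A at 25.9 and 22.9 RPKM. MYC was at 41.7 and 43.9 RPKM, TERT, the catalytic subunit of telomerase, at 0.59 and 0.56 RPKM, and CCND2 and MYCN were silent. CDKN1A was higher than UT in every library of the other groups, at 189.3 and 123.1 RPKM in Ni-E, 55.8 and 48.7 RPKM in Ni-W and 62.8 and 63 RPKM in HCl3, or 6.18, 2.09 and 2.48 times UT (adjusted P = 1.02e-12, 1.19e-16 and 6.97e-34). MYC was lower in Ni-W, at 18.1 and 19.8 RPKM (2.31-fold, adjusted P = 2.82e-24), and in HCl3, at 26.6 and 24.2 RPKM (1.75-fold, adjusted P = 3.21e-13). PCNA was lower in Ni-W, at 249.6 and 223.7 RPKM (1.6-fold, adjusted P = 5.01e-10).

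In several families with tissue-specific members the general ones stood highest. Other members of such families were on as well, with ENO2 at 32 and 31.5 RPKM, PFKM at 27 and 26.7 RPKM and CKB at 21.29 and 17.35 RPKM. For lactate dehydrogenase LDHB was at 561.2 and 578.6 RPKM and LDHA at 501.6 and 506.7 RPKM, while LDHC, of the testis, had 1 and 0 reads. PKM, the pyruvate kinase of most tissues, was at 699.9 and 684.9 RPKM and PKLR, of liver and red cells, had none. ALDOA was at 740.4 and 688.3 RPKM against 1.99 and 1.23 RPKM for ALDOC. HK1 stood at 76.8 and 77.4 RPKM, HK2 at 11.2 and 11.6 RPKM, and HK3 had no reads. Among calcium- and membrane-binding proteins S100A6 was at 846.8 and 587.7 RPKM, ANXA2 at 627.4 and 666.4 RPKM and ANXA1 at 340.6 and 366.1 RPKM, and S100B, S100P and ANXA13 had no reads.

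Whether a gene was on or silent went along with the CpG content of its promoter. Unmethylated CpG islands cover the starts of most broadly used genes, whereas many tissue-specific genes start in CpG-poor sequence. For the 300 bases around the GENCODE v44 start, the number of CpG over that expected from the C and G content had a median of 0.868 for the genes that were on (quartiles 0.749 and 0.97, 10781 of 10885 genes with a start). It was 0.698 for intermediate genes and 0.308 for silent genes (quartiles 0.159 and 0.621, 9824 of 10696). A ratio of at least 0.6 was reached by 89.9% of the genes that were on and by 26.5% of the silent genes. Within protein-coding genes the medians were 0.873 and 0.34, and for genes of at least 100 RPKM the median was 0.898. These values describe genes of 1 cell line and carry no test.

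**Figure D5:**
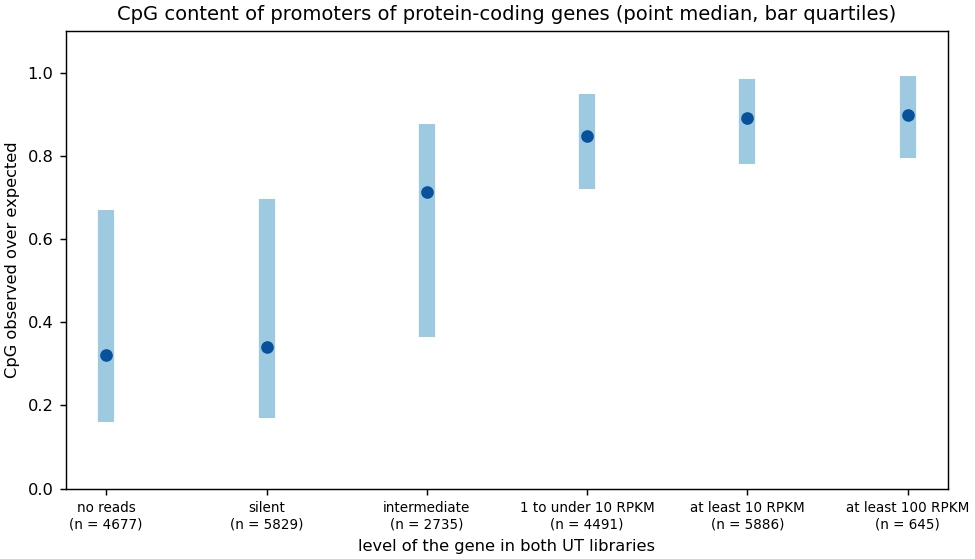
CpG observed over expected in the promoters of protein-coding genes (y axis) by level in both UT libraries (x axis, with the number of genes), as median (point) and quartiles (bar). The median stands at 0.34 for silent genes and at 0.898 for genes of at least 100 RPKM.

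At a listed RefSeq start, KRT8 lay under the lower quartile of the genes that were on. NKX2-1 lay within the quartiles of the silent genes. The quartiles rest on GENCODE starts, which can differ from RefSeq starts, so the ratios are not matched by start. Which start of KRT8 or NKX2-1 the cells used was not tested. The RefSeq promoters of KRT8, which was on, and of NKX2-1, which had no reads, are shown with each CG in capitals (GRCh38.p14, chr12:52926420-52926719 for KRT8 and chr14:36520183-36520482 for NKX2-1, both from the minus strand).
KRT8: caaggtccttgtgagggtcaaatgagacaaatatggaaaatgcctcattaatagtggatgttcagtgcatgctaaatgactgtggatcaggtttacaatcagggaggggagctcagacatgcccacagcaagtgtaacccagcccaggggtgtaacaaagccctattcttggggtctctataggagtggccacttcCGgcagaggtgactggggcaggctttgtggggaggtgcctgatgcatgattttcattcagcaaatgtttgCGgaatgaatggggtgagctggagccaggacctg
NKX2-1: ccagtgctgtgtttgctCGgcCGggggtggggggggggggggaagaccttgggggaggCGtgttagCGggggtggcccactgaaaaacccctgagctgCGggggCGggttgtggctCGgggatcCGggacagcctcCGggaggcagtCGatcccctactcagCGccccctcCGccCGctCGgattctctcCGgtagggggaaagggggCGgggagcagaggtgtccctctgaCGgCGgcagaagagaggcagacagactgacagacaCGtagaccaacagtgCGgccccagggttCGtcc
At this listed start the KRT8 window held 2 CpG, 0.111 of the expected number, at a gene of 219.9 and 192.2 RPKM. The ratio at the GENCODE start of KRT8 is not reported here, so this window does not describe every start of KRT8. The NKX2-1 window held 21 CpG, 0.615 of the expected number, at a gene without reads. RefSeq lists another start for NKX2-1, whose window had a ratio of 0.542.

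The set of genes in use was largely shared with the other groups. Of the 10885 genes that were on in UT, 98.3% were also on in the Ni-E cells, 98.2% in the Ni-W cells and 98.7% in the HCl3 cells. By DESeq2 298 of them were higher and 241 lower in the Ni-E cells, 716 higher and 685 lower in the Ni-W cells, and 711 higher and 538 lower in the HCl3 cells. For Ni-E these were 2.74% and 2.22% of those tested, against 3.75% and 2.05% over all genes tested. For Ni-W they were 6.58% and 6.29%, against 10.9% and 4.83%. For HCl3 they were 6.53% and 4.94%, against 11.1% and 3.74%. Genes that were on in UT and fell to 3 reads or fewer in both libraries of a group numbered 9 for Ni-E, 15 for Ni-W and 10 for HCl3. All were small RNAs listed as MIR or SNORD genes, except BCHE for Ni-W and TLL1 for HCl3. The highest of them in UT were MIR4653, MIR6727 and MIR4785 for Ni-E, SNORD99, MIR4653 and MIR6805 for Ni-W, and MIR6805, MIR6727 and MIR1281 for HCl3, all with 10 reads or fewer in each UT library. Silent genes of UT that were on in another group numbered 10 for Ni-E, 39 for Ni-W and 33 for HCl3. Among the 3 highest of each group, and named after their values were seen, were PPP1R14C in Ni-E, at 3.68 and 3.01 RPKM, and the imprinted gene SNRPN, which overlaps SNURF, at 15.8 and 14.3 RPKM in Ni-W and 8.72 and 9.37 RPKM in HCl3. SNRPN had 3 and 0 reads in UT. SLC38A5, an amino acid carrier gene with 2 and 0 reads in UT, was at 6.79 and 5.65 RPKM in Ni-W and at 11 and 11.1 RPKM in HCl3.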

How the data were processed

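Read counts and RPKM values per gene came from 8 BEAS-2B libraries. Reads had been mapped to hg19 with STAR 2.4 by the authors, who discarded reads with more than 1 alignment and counted the rest per RefSeq gene. The deposited counts are raw. The deposited RPKM values were derived by the authors from these counts and are rounded to 2 decimals. Use of the strand in counting is not given in the sources used here. A value covers all listed exons of a gene.

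Members and gene lists were chosen with earlier results of these data known, and the lists of AP-1, TEAD and SRF factors, of PAX, SOX, GATA and LIM homeobox factors, of matrix proteases, of cadherins and of HLA genes were added after the values were seen. Genes named are the 30 highest in UT, the leading and the silent list members, the 5 genes with the largest ratio between the UT libraries each way (at least 50 reads in the larger), and for each other group the 3 highest genes lost. No test was run on a list. Some of these genes are not reported here by name.

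Counts of UT and 1 other group were fitted with DESeq2 1.42.0 in R 4.3.3. Size factors came from the median of ratios, the Wald test was two-sided, and P values were adjusted by Benjamini-Hochberg over all genes left by independent filtering. Calls needed an adjusted P under 0.05 and at least 1.5-fold, after the methods of the study. With 2 libraries a group these values rest on a spread shared across genes. On simulated counts for Ni-E against UT, 200 of 25411 genes were changed by 2-fold or more. DESeq2 recovered 198 with 1 false call and edgeR 4.0.16 recovered 198 with 2. The simulated counts were drawn at the mean levels of the UT libraries, so this recovery does not measure the accuracy of the real Ni-E calls. Changes between 1.5-fold and 2-fold were not simulated, so recovery at the threshold used for calls is not known. Alternatives were edgeR, TMM factors, a mean count of at least 10, all libraries in one fit, 2-fold, the repeat suffix as a block, each library left out, and other thresholds for on and silent.

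Repeated 50-base stretches were counted on GRCh38 in GENCODE v44 transcripts. Promoter sequences came from RefSeq (GRCh38.p14), and 24804 of 25411 genes were matched to a RefSeq gene ID. Coordinates were not converted between builds. Chromatin data were not analysed here.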

Additional observations from a re-analysis of the deposited data

How the results depend on the processing

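The number of genes on in UT ranged from 9881 (at least 2 RPKM) to 12054 (RPKM rescaled to a common sum), and the number silent from 8666 (no reads) to 11928 (at most 10 reads). Library by library, 11093 and 10992 genes were on. Of the 56 gene lists, 3 moved by over 1.5 times in their number of members on at 0.5 RPKM, 7 at 2 RPKM and 0 with either library alone. The 100 highest genes held 14.3% when counted in reads in place of RPKM, which does not divide by length. The genes over 2-fold between the UT libraries numbered 18 at 10 RPKM or more, 271 at 1.5-fold, and 7 without the shortest of the 5 length classes, an alternative chosen after seeing the data. Median CpG ratios stayed between 0.861 and 0.889 for genes on and between 0.289 and 0.34 for silent genes.

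Against UT, the calls numbered 840 for Ni-E, 2484 for Ni-W and 2333 for HCl3. At 2-fold the counts were 418, 1368 and 1308, and by edgeR 1044, 2782 and 2757. With the repeat suffix as a replicate block they were 491, 2134 and 1779, of which 485, 2103 and 1766 were shared with the unblocked calls. Same-suffix deviations from the group mean had an r over genes of -0.116 for Ni-E, 0.222 for Ni-W and -0.159 for HCl3, each against UT. With so few libraries a group, these values cannot show whether the suffix marks a batch, and the labels do not say. A crossed block, added after the data were seen, gave 632 calls in Ni-E and 1880 in HCl3. Leaving out 1 library gave 356 to 620 calls for Ni-E, 1516 to 2190 for Ni-W and 1339 to 2109 for HCl3, where the library left alone is assumed to vary like the others. The low ends came without Ni-E replicate 1 (356), Ni-W replicate 1 (1516) and HCl3 replicate 2 (1339), and 440 and 496 were called without UT replicate 2 and Ni-E replicate 2. These fits have fewer libraries. Among the genes named with a test, 123 alternative values lost a call, 22 gained a call and 0 changed direction. Genes under about 3 reads lie at the limit set by depth.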
